A study of Mus musculus with 6 samples.

Results

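The stress keratins Krt6a, Krt6b, Krt16 and Krt17 were followed in single-cell ATAC-seq, an assay in which a transposase cuts accessible DNA in nuclei, so that cut sites mark open chromatin. The members were taken by name, 4 of 21938 protein-coding genes, and were measured as cut sites within 1 kb of each start and in 500 bp tiles over their gene bodies and 30 kb on each side. The study compared horizontal basal cells (HBCs), quiescent stem cells on the basal lamina of the mouse olfactory epithelium, before and 24 h after injury. There were 3 uninjured and 3 injured libraries, which the labels call biological replicates, with tissue of each animal dissociated on its own. All 6 carried the genotype Krt5CreER; Rosa26 LSL-YFP/LSL-YFP, which marks cells that express Krt5 when Cre is induced, and whatever these cells later give rise to, with YFP. The injured mice had received methimazole, a drug toxic to the olfactory epithelium, by intraperitoneal injection. In both groups the mice were 8 weeks old in replicate 1, 6 weeks in replicate 2 and 6 to 7 weeks in replicate 3. YFP-positive, propidium iodide-negative cells of the dorsal epithelium were sorted before nuclei were prepared, so any cell with YFP could enter.

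Keratins are the intermediate filament proteins of epithelia and polymerise as pairs of a type I and a type II chain. Krt6a and Krt6b are type II chains and Krt16 and Krt17 are type I chains that pair with them. In skin they are scarce in the resting epidermis between hair follicles and are switched on in keratinocytes at the edge of a wound, which gave them the name stress keratins. Krt5 (type II) and Krt14 (type I) are the constitutive pair of basal epithelial cells, HBCs included.

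The uninjured libraries held 454, 889 and 629 cells (barcodes with at least 2000 fragments) and the injured ones 1338, 420 and 746, with medians of 8710 to 21702 fragments per cell and 14.8 to 44.9 times 1000000 cut sites per library. Uninjured replicate 3 and injured replicate 3 shared 34 cell barcodes, 5.41% of the cells of the smaller library, while the other 14 pairs of libraries shared at most 4. Within shared barcodes some fragments had the same ends in both libraries, 82002 between the replicates numbered 3 (5.97% of the smaller side). Of the other pairs, the largest such shares were 91.7% of the smaller side between injured replicates 1 and 2 (1 barcode), 33.6% between uninjured and injured replicates 2 and 20.6% between uninjured replicate 1 and injured replicate 2. Where these fragments came from was not tested. In injured replicate 2 a single barcode held 1746401 fragments, 14.7% of the fragments in that library's cells. It was the barcode shared with injured replicate 1, and was among those shared with uninjured replicates 1 and 2, so these pairs are not separate cases. Barcodes of 10 or more times the library's median numbered 30 in uninjured replicate 2 (23.2% of its fragments), 5 in injured replicate 1 (6.65%) and this 1, and 0 in the other libraries. No doublets were called. Promoter values without the 34 barcodes shared by the replicates numbered 3, and without barcodes of 10 or more times the median fragments, are given below. Barcodes shared by other pairs were not removed as such, but the second set leaves out the largest barcode of injured replicate 2. Both sets were added after these features were seen. Accessibility is reported here, not transcript levels.

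Krt16 and Krt6a had the largest values of change of the 4 promoters, and their order depends on the library: without uninjured replicate 3 the log2 change was 4.12 at Krt16 and 4.13 at Krt6a. In windows of 1 kb either side of the start Krt16 had 1.14, 1.25 and 2.39 CPM (cut sites per 1000000 cut sites in cells, scaled by TMM factors from all promoters) in uninjured replicates 1 to 3, from 19, 44 and 84 cut sites. In injured replicates 1 to 3 it had 33.5, 19.9 and 9.90 CPM, from 1325, 409 and 344 cut sites. Each injured library stood above every uninjured one, and injured replicate 3 was the lowest of its group while uninjured replicate 3 was the highest of its own. The group means were 1.59 ± 0.691 and 21.1 ± 11.9 CPM (SD, n = 3), a ratio of 13.3. Krt16 rose by a log2 of 3.68 ± 0.53 (SE; edgeR quasi-likelihood, Benjamini-Hochberg over all promoters tested, adjusted p 0.0204). Over all 17163 promoters tested, 379 (2.21%) were called higher and 294 (1.71%) lower at an adjusted p under 0.05, and the change of Krt16 was larger than that of 99.93% of them. The call was lost when any of the uninjured libraries was left out, with edgeR adjusted p of 0.104, 0.0764 and 0.0711 without replicates 1, 2 and 3, and the log2 change stayed between 3.19 and 4.12 over the 6 libraries left out in turn. Without the barcodes shared by the replicates numbered 3 it was 3.73 (edgeR adjusted p 0.0167).

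Krt6a, the type II partner, had 0.901, 0.793 and 3.72 CPM in the uninjured libraries (15, 28 and 131 cut sites) and 19.3, 17 and 8.11 CPM in the injured ones (762, 349 and 282 cut sites). Its groups did not overlap either, and again the replicates numbered 3 lay closest to each other. Of all promoters tested, 2232 (13%) had higher values in every injured than in every uninjured library and 2451 (14.3%) had lower ones, so lack of overlap on its own was frequent. The means were 1.81 ± 1.66 and 14.8 ± 5.90 CPM (SD, n = 3) and the log2 difference was 2.96 ± 0.63 (SE), larger than at 99.74% of promoters. With an edgeR adjusted p of 0.0546, Krt6a just missed the threshold over all promoters. The call depends on the processing: Krt6a passed with DESeq2 (adjusted p 0.00444), total cut sites (edgeR adjusted p 0.0292), 10 kb bins (4.8e-06), the gene body (0.0343) and cells counted (0.0291). It did not pass with no filter on low counts (edgeR adjusted p 0.110), 500 bp windows (0.0899) or the replicate block (0.0826). Nor did it in cells with at least 5000 fragments (0.0503) or at least 20% of cut sites in open tiles (0.0516). Leaving out any library but uninjured replicate 3 gave edgeR adjusted p of 0.0722 to 0.170. Without uninjured replicate 3 the log2 change was 4.13 (edgeR adjusted p 0.00133). Without barcodes of 10 or more times the median fragments it was 2.91 (edgeR adjusted p 0.0471). Leaving out the barcodes shared by the replicates numbered 3 gave 3.06 (edgeR adjusted p 0.0437), and uninjured replicate 3 then still held 3.52 CPM at Krt6a and 2.30 CPM at Krt16.

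Krt17 was open before injury and did not differ after it beyond the spread between libraries. It had 59.2, 44.9 and 35.9 CPM in uninjured and 57.2, 42.5 and 36.6 CPM in injured replicates 1 to 3. Libraries of the same replicate number lay closer together than libraries of a group did. The log2 change was -0.02 ± 0.22 (SE, edgeR adjusted p 0.971) and it took either sign over the alternatives. With TMM factors from 10 kb bins, which moved the median of all promoters from 0.003 to -0.54, Krt17 stood at -0.60 (edgeR adjusted p 0.00158). Under that scaling the calls were 271 higher against 9846 lower promoters, and when libraries were scaled by their totals 417 against 6600, so every change here is relative to the median promoter.

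Krt6b was nearly closed in all 6 libraries. It had 6, 6 and 4 cut sites (0.360, 0.170 and 0.114 CPM) before and 18, 14 and 8 (0.456, 0.682 and 0.230 CPM) after injury, and the groups overlapped. Of the 14 in injured replicate 2, 5 came from its single largest barcode. The log2 difference was 1.16 ± 0.72 (SE, edgeR adjusted p 0.368). Hair and nail keratins, used as closed-chromatin background, had medians of 0.253 to 0.585 CPM over 12 genes in the 6 libraries and a highest value of 3.21 CPM, so Krt6b lay in their range in both groups.

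**Figure D1:**
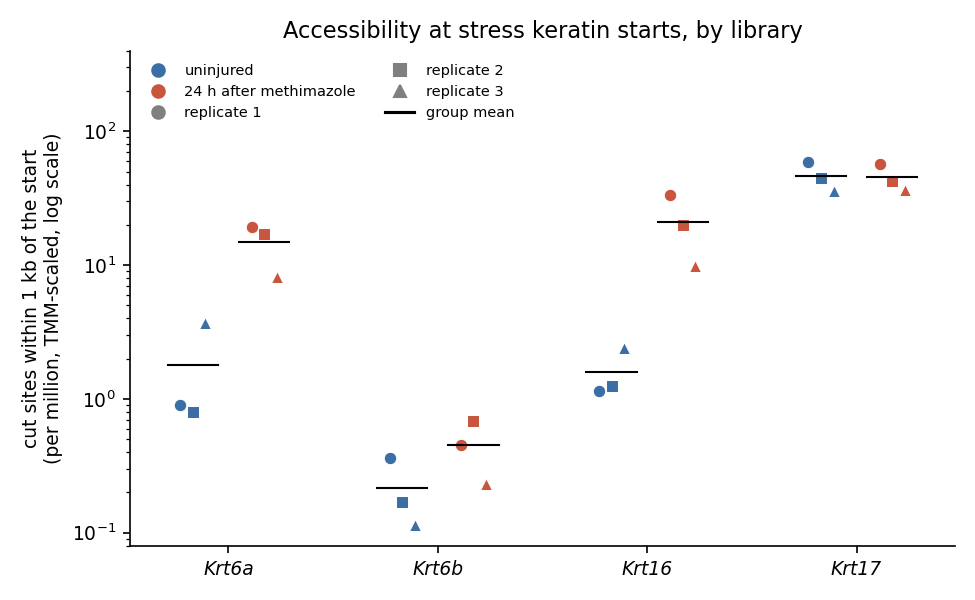
CPM within 1 kb of each start (log scale, TMM-scaled) for the 4 stress keratins, with 1 point per library, shapes for the replicate number and a bar for the group mean. Krt16 goes from a mean of 1.59 to 21.1 and Krt6a from 1.81 to 14.8, Krt17 lies between 35.9 and 59.2 in all libraries, and Krt6b stays below 0.7.

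In uninjured cells the order of the promoters, all windows of the same length, was Krt17, then Krt6a and Krt16, then Krt6b. Before injury Krt6a and Krt16 could not be ordered, as Krt16 was the higher in replicates 1 and 2 and Krt6a in replicate 3. After injury Krt16 was the higher in each library, at 33.5 against 19.3, 19.9 against 17 and 9.90 against 8.11 CPM. The spread between injured libraries was larger than these differences in replicates 2 and 3, and the order was not tested. Before injury Krt17 stood above 96.1% of promoters, Krt6a above 37.17%, Krt16 above 36.43% and Krt6b above 20.84%. After injury Krt16 stood above 73.72% and Krt6a above 61.15%, while Krt17 was at 96.89% and Krt6b at 24.19%. Set against the neighbouring Krt17 in the same library, which takes out depth and scaling, Krt16 was at 1.93, 2.78 and 6.66% before injury and at 58.6, 46.9 and 27.0% after it. Krt6a was at 1.52, 1.77 and 10.4% of Krt17 before and at 33.7, 40.0 and 22.2% after injury. Both ratios were higher in each injured library than in any uninjured one, and neither promoter reached the level of Krt17.

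The cut sites at Krt6a and Krt16 lay mainly upstream of the start in both groups. In bins of 100 bp the injured mean peaked 200 bp upstream at Krt16 (4.32 CPM per bin), 100 bp upstream at Krt6a (2.91) and at the start itself at Krt17 (5.43). The upstream 1 kb held 78.3, 78.5 and 80.4% of the cut sites of Krt6a in injured replicates 1 to 3, and 88.7, 85.8 and 89.0% of those of Krt16. In uninjured libraries these shares were 73.3, 78.6 and 77.9% at Krt6a and 89.5, 72.7 and 89.2% at Krt16, from far fewer cut sites. Fragments shorter than 100 bp, which come from within nucleosome-free stretches, made up 33.9% at Krt6a, 36.8% at Krt16 and 33.0% at Krt17 in injured libraries. Krt6a and Krt6b are near-identical copies beyond their starts, where 94.8% of the 1000 bases downstream match and only 34.2 and 34.5% of 32-base stretches are unique in the genome. Upstream 100% of such stretches are unique at Krt6a and 97.9% at Krt6b, and there Krt6a had 0.660, 0.623 and 2.90 CPM before and 15.1, 13.3 and 6.5 CPM after injury. Krt16, which also has similar copies, was 72.6% unique upstream and 60.4% downstream, so values in its gene body are uncertain, as are those of Krt6a and Krt6b. Krt17 was 96.4% unique upstream and 95.9% downstream.

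**Figure D2:**
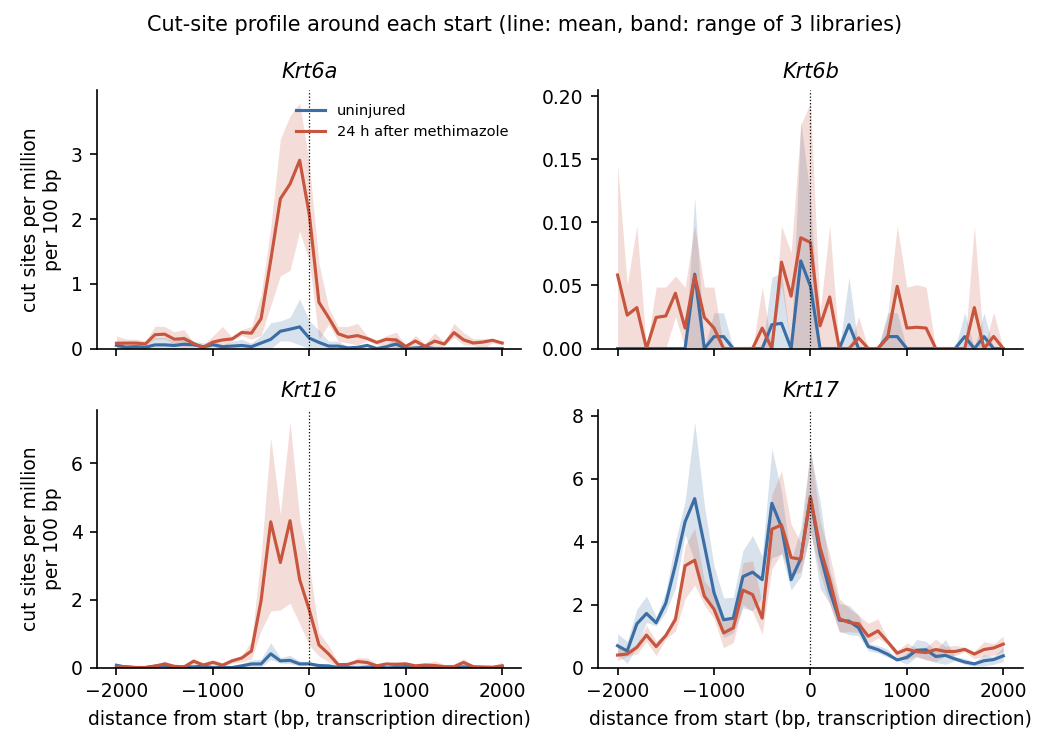
CPM in 100 bp bins from 2000 bp upstream (negative) to 2000 bp downstream of each start, as the mean (line) and range (band) of the 3 libraries of a group, with a vertical scale of its own for each gene. Krt6a and Krt16 show a peak upstream of the start in injured libraries that is almost flat in uninjured ones, and the peak at the Krt17 start has the same height in both groups.

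The tiles show where else the chromatin of both loci differed. All tiles of the genome with enough cut sites were fitted together, and of 407941 tested, 22321 (5.47%) were called higher and 5104 (1.25%) lower after injury. The locus of Krt16 and Krt17 on chromosome 11 spanned 151 tiles, of which 66 were tested, 9 were called higher (13.6%) and 2 lower. The locus of Krt6b and Krt6a on chromosome 15 spanned 157 tiles, of which 53 were tested, 13 were called higher (24.5%) and 0 lower (edgeR quasi-likelihood; the count of lower tiles there was 1 to 3 with other scalings and 1 with the replicate block). With that block 17 tiles were higher at the Krt6b and Krt6a locus, and 13 higher and 4 lower at the Krt16 and Krt17 locus, against 6.38% higher and 1.85% lower of all tiles tested. Scaling shifts this balance, to 17937 higher and 9830 lower tiles with total cut sites and to 13275 and 20105 with 10 kb bins. At the Krt16 and Krt17 locus 10 kb bins also gave more lower than higher tiles. With a library left out that locus had 2 to 16 higher and 0 to 4 lower tiles. The Krt6b and Krt6a locus then had 2 to 23 higher and 0 to 2 lower. Coordinates are of GRCm38 and annotations of GENCODE M21, and all 4 genes lie on the minus strand.

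On chromosome 11, Krt16 spans chr11:100246091-100248902 and its start lies in the called region chr11:100248501-100250000. The highest of its 3 tiles, just upstream of the start, had 0.756, 0.766 and 1.89 CPM in uninjured and 23.2, 13.8 and 6.92 CPM in injured replicates 1 to 3, a log2 rise of 3.64 ± 0.46 (SE, edgeR adjusted p 0.00205). This tile was called in 13 of 13 alternatives, including each with a library left out. Downstream of the Krt16 gene, chr11:100244501-100245500, between genes, rose in its lead tile by 2.74 ± 0.69 (SE, edgeR adjusted p 0.0352), from 1, 7 and 4 to 72, 13 and 16 cut sites in that tile. It was called in 5 of the 12 alternatives that gave it a value and was not with any library left out but injured replicate 3. Each injured count was larger than every uninjured one.

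Krt17, at chr11:100256217-100261029, had no called tile at its start. The start tile had 27.2, 21.4 and 16.9 CPM before and 25.1, 18.5 and 16.4 CPM after injury, a log2 change of -0.12 (edgeR adjusted p 0.824). Within the gene, a tile in an intron (chr11:100256501-100257000) rose by 1.05 (edgeR adjusted p 0.0420) and a tile over an exon (chr11:100258501-100259000) rose by 1.24 (edgeR adjusted p 0.0474). The intronic tile went from 3.40, 2.86 and 2.53 to 8.41, 5.18 and 4.38 CPM. Both are marginal, called in 3 and 4 of 13 alternatives and in each case lost without any library but injured replicate 3.

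Upstream of Krt17 the direction was the opposite. The region chr11:100262001-100263000, which begins 972 bp from the Krt17 start and reaches the 3′ end of Krt42, fell in its lead tile by 1.02 on the log2 scale (edgeR adjusted p 0.0336), from 8.76, 6.75 and 5.00 to 3.76, 2.52 and 3.71 CPM. Farther out, chr11:100277501-100278500, between genes and 16472 bp upstream of the Krt17 start, rose in its lead tile by 1.20 ± 0.24 (SE, edgeR adjusted p 0.0136), from 4.66, 3.45 and 5.64 to 13.6, 10.4 and 7.59 CPM. The fall was called in 10 of 13 alternatives, and lost when either of uninjured replicates 1 and 2 or injured replicate 2 was left out. The rise was called in 8 of 13, not without any of these or without injured replicate 1, nor with 10 kb bins.

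**Figure D3:**
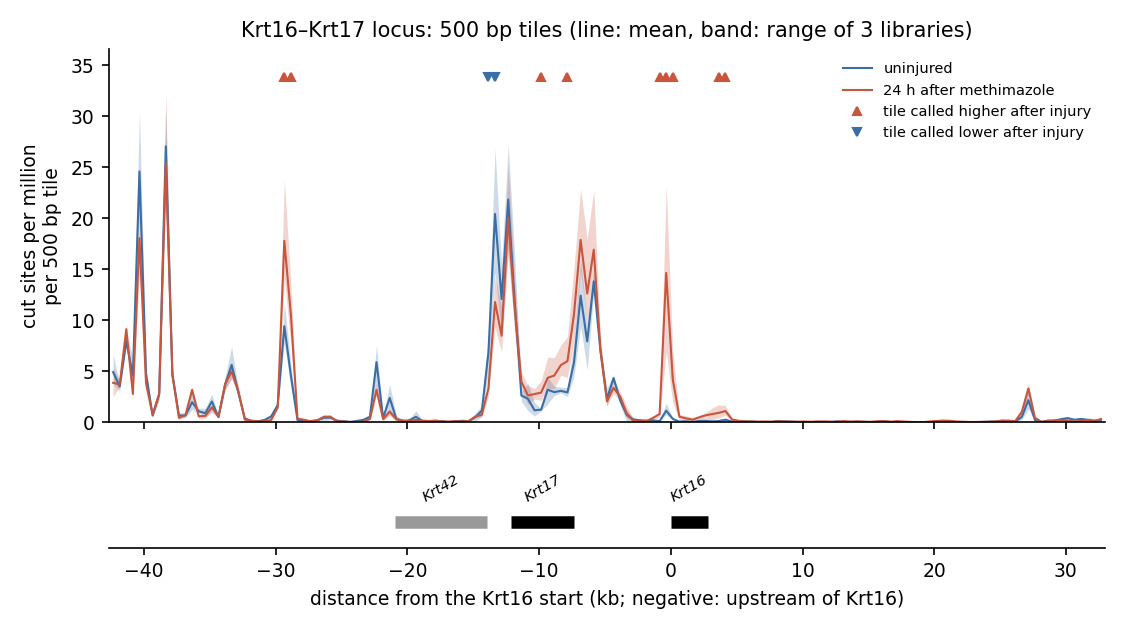
CPM in 500 bp tiles across the Krt16 and Krt17 locus against the distance from the Krt16 start in kb (negative is upstream), as the mean (line) and range (band) of the 3 libraries per group, with markers for tiles called higher or lower and bars for genes below. The peak at the Krt16 start is present in injured libraries at a mean of 14.7 CPM per tile and near 1.14 in uninjured ones, and the peaks over the Krt17 start overlap between the groups.

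On chromosome 15, Krt6a spans chr15:101689910-101694307 and its start lies in the called region chr15:101693501-101695000. The highest tile there had 0.378, 0.177 and 1.86 CPM in uninjured and 9.47, 7.56 and 4.10 CPM in injured replicates 1 to 3, a log2 rise of 3.05 ± 0.62 (SE, edgeR adjusted p 0.0147). The call was lost without uninjured replicate 1 (edgeR adjusted p 0.0697) or injured replicate 2 (0.0753). Inside the gene, chr15:101692501-101693000 had 0 cut sites in all 3 uninjured libraries, which allows up to 3 in each, and 25, 18 and 12 in the injured ones (edgeR adjusted p 0.00949; not called without injured replicate 1 or 2). Near the 3′ end of Krt6a, a tile that also overlaps an exon of Gm49428 (chr15:101690001-101690500) rose by 3.12 (edgeR adjusted p 0.0148), from 1, 3 and 8 to 73, 29 and 20 cut sites, and was called without uninjured replicate 3 or injured replicate 3 but in none of the other 4 fits with a library left out.

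Upstream of Krt6a, a tile between genes, chr15:101697501-101698000, 3194 bp from the Krt6a start, was called in 13 of 13 alternatives. It is outside the naming rule, which took the 6 largest changes per locus, and was chosen after its values were seen. It had 2.27, 1.97 and 1.72 CPM in uninjured and 5.61, 6.32 and 5.22 CPM in injured replicates 1 to 3, a log2 rise of 1.53 ± 0.23 (SE, edgeR adjusted p 0.00384). Unlike the Krt6a start, its values in the replicates numbered 3 lay no closer together than in replicates 1.

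Farther upstream lies Krt5, at chr15:101707070-101712898. Of the called regions, 2 touch that gene, chr15:101706001-101707500 at its 3′ end and chr15:101710501-101711500 within it, with log2 rises of 2.42 (edgeR adjusted p 0.0229) and 2.00 (edgeR adjusted p 0.0146) in their lead tiles. Beyond Krt5, chr15:101721001-101721500 rose by 2.00 (edgeR adjusted p 0.0275), from 6, 11 and 34 to 129, 46 and 61 cut sites. Upstream of Krt5, chr15:101715001-101715500, also outside the naming rule, rose by 1.34 (edgeR adjusted p 0.0348) and was called in 6 of 13 alternatives, lost also with total cut sites, with 10 kb bins and without uninjured replicate 3. All 4 lost the call when uninjured replicate 1 or either of injured replicates 1 and 2 was left out, and all but the region within Krt5 without uninjured replicate 2.

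Krt6b, at chr15:101676023-101680287, had no tile that could be tested at its start. The tile over it held a mean of 0.124 CPM before and 0.255 CPM after injury. The stretch downstream of Krt6a towards Krt6b and past it is nearly empty of cut sites in both groups, as the plot of the Krt6b and Krt6a locus shows.

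**Figure D4:**
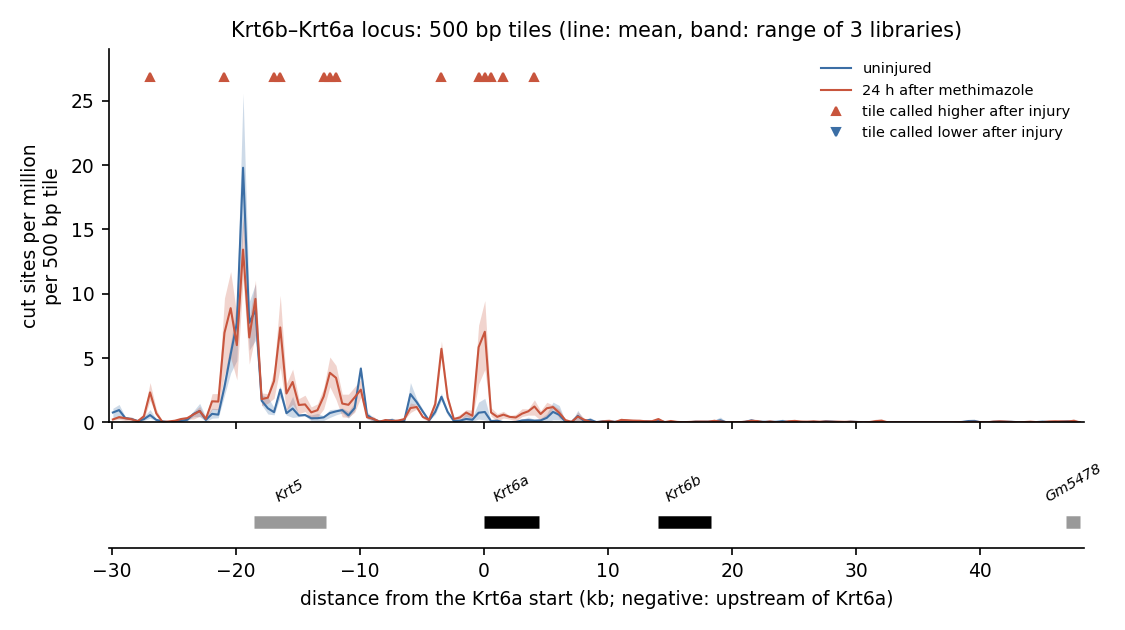
CPM in 500 bp tiles across the Krt6b and Krt6a locus against the distance from the Krt6a start in kb (negative is upstream), as the mean (line) and range (band) of the 3 libraries per group, with markers for called tiles and bars for genes below. All 13 called tiles lie between the 3′ end of Krt6a and the stretch upstream of Krt5, and tiles around Krt6b stay near 0 in both groups.

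The called regions between genes are shown by sequence, because they are the changes at these loci that lie outside promoters and gene bodies. Each is 200 bases of the plus strand of GRCm38 around the point with most cut sites in injured libraries. Capitals mark matches to the AP-1 motif TGANTCA, the site of Fos and Jun family dimers, searched on both strands.
Upstream of Krt6a, chr15:101697429-101697628: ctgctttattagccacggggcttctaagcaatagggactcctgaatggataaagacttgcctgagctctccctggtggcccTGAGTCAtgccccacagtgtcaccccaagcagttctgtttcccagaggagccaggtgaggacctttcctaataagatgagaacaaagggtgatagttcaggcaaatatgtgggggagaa
Upstream of Krt5, nearer, chr15:101714965-101715164: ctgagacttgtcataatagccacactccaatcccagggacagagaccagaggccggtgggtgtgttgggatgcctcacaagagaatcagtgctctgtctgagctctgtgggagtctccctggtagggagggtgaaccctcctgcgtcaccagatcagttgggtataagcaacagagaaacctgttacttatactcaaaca
Upstream of Krt5, farther, chr15:101721011-101721210: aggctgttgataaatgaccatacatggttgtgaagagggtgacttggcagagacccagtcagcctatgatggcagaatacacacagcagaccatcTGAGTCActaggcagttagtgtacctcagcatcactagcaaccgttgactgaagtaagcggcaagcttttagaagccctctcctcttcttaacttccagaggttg
Downstream of Krt16, chr11:100244916-100245115: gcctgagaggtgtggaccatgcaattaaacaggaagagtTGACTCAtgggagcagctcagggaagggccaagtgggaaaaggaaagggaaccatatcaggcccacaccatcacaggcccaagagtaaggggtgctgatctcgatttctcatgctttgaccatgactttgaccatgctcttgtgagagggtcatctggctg
Upstream of Krt17, chr11:100277956-100278155: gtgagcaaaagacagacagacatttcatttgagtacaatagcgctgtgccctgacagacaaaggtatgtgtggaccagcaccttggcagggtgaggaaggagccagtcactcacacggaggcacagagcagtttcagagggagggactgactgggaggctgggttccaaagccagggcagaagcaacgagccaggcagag

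The motif was present in 3 of these 5 windows. The called region at the Krt16 start held 2 matches and that at the Krt6a start held 0, and the region far upstream of Krt17 held 1 outside the printed window. Among all tiles tested 20.3% held the motif, among those called higher 59.7% and among those called lower 7.41%, so a match at these loci is what most tiles called higher in the genome show. A match is a description of letters and says nothing of binding. Other motifs searched in the same way were TEAD (GGAATG), RUNX (TGTGGT), NF-kB, STAT (TTCNNNGAA) and KLF (CCNCNCCC), which were in 25.9, 33.3, 48.8, 14.7 and 43.9% of tiles tested. Among tiles called higher their shares were 29.5, 40.4, 48.1, 14.6 and 42.0%, and among those called lower 29.7, 28.8, 54.8, 19.8 and 47.9%. The region at the Krt16 start held 1, 1, 3, 0 and 2 matches to these and that at the Krt6a start 1, 1, 3, 0 and 1.

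Cells were then counted, to see whether the change lay in a few cells or in many. A cut site within 1 kb of the Krt16 start was found in 1.98, 2.02 and 5.09% of cells in uninjured and 31.1, 28.1 and 12.1% in injured replicates 1 to 3. At Krt6a the shares were 1.32, 1.24 and 5.72% before and 20.8, 25.0 and 12.2% after injury. At both genes each injured library lay above all uninjured ones, by means of 20.7 and 16.6 percentage points (exact two-sided permutation test over libraries, p 0.1 for each, the smallest that 3 against 3 allows). Krt17 had a cut site in 49.1, 37.7 and 45.6% of cells before and 45.7, 45.7 and 38.1% after injury, and the groups overlapped (exact permutation p 1). Krt6b had a cut site in 0.225 to 0.661% of cells before and in 0.402 to 1.19% after injury (exact permutation p 0.2), from at most 10 cells in a library.

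These shares depend on depth and on background. The 12 hair and nail keratins had cut sites in a median of 0.338 to 0.833% of cells and at most 5.90%, at the same depths. The uninjured shares of Krt6a and Krt16 lay above these medians in each library but below the highest of these genes. Those of injured libraries lay above it. By CPM the highest was a single gene, Krt86 (means 1.94 before and 2.84 after injury), and no other exceeded 1.04 CPM (Krt33b) in any library. Krt16 was above 1.04 CPM in each uninjured library, and Krt6a in uninjured replicate 3 only. In uninjured replicate 3 Krt6a (5.72%) lay well above their median there (0.636%), and by CPM (3.72) also above their highest value in any library (3.21). Cells with a Krt16 cut site were deeper, with a median of 16961.5 against 9916 fragments in injured replicate 1, and a Wilson interval of 28.7 to 33.6% around its share of 31.1% covers counting error only. With each cell thinned to 2000 fragments the mean share went from 0.196 to 4.26% at Krt16 and from 0.307 to 2.87% at Krt6a (exact permutation p 0.1 each). For Krt17 the thinned mean was 11.8% before and 8.39% after injury and the groups no longer overlapped (exact permutation p 0.1), with 14.3, 11.2 and 9.86% against 9.34, 8.33 and 7.51%. Thinning sets no scaling by promoters, and per 1000000 cut sites of the library without TMM the Krt17 promoter was also lower in each injured library than in the uninjured one of its number, at 66.5, 48.2 and 40.0 before and 50.4, 36.8 and 35.7 after injury (log2 change -0.32 with total cut sites, edgeR adjusted p 0.249). Open tiles held 73.9 to 77.7% of cut sites in uninjured and 65.1 to 72.7% in injured libraries, and the part of this in the Krt17 share was not tested. Among cells with a cut site at Krt16 the mean number per cell was 2.11, 2.44 and 2.63 before and 3.19, 3.47 and 3.82 after injury.

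**Figure D5:**
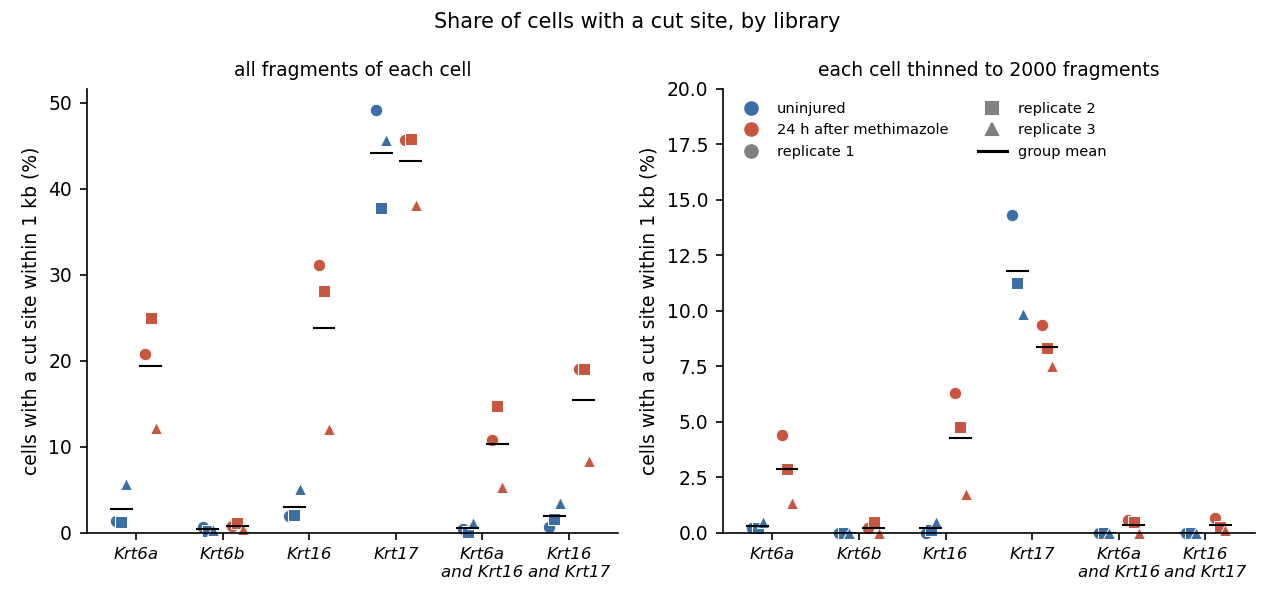
Share of cells with a cut site within 1 kb of each start, and at 2 starts jointly, for each library, with all fragments (left) and with each cell thinned to 2000 fragments (right). Bars are group means. Krt6a and Krt16 lie higher in each injured library in both panels, and Krt17 overlaps between the groups on the left and not on the right.

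Cells with a cut site at Krt6a or Krt16 made up 2.86, 3.15 and 9.70% of uninjured and 41.1, 38.3 and 18.9% of injured cells (exact permutation p 0.1). Uninjured replicate 3 again stood above its group and injured replicate 3 below it. Leaving out the barcodes they share gave group means of 5.09 and 32.8%, against 5.24 and 32.8% with them. For a cut site at any of the 4 genes, which Krt17 dominates, the means were 46.2 and 55.7% (exact permutation p 0.3).

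Krt6a and Krt16 lie on different chromosomes, and cut sites at both were found in 2, 1 and 7 uninjured cells (0.441, 0.112 and 1.11%) and in 144, 62 and 40 injured cells (10.8, 14.8 and 5.36%; exact permutation p 0.1). With cells thinned to 2000 fragments the joint share was 0 in all uninjured and 0.598, 0.476 and 0% in injured libraries (exact permutation p 0.4), and no cell held all of Krt6a, Krt16 and Krt17. In injured replicates 1 to 3 the product of the single shares gives 6.46, 7.02 and 1.47%, below what was counted in each. The odds ratio was 3.11, 6.67 and 9.49, and still 2.49, 4.84 and 6.42 when cells were compared within 10 groups of like depth, since deeper cells carry more of both. Restricted to cells with a cut site at Krt5 or Krt14 as well (55.5, 57.9 and 43.7% of injured cells), it was 2.23, 4.47 and 4.13. In uninjured libraries the odds ratios were 31.5, 5.06 and 5.48, from 2, 1 and 7 joint cells, so no difference between the groups is read from them. These ratios have no test, because cells of a library are not replicates, and the comparisons within depth were added after the data were seen.

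Krt17 joined less closely. Within the 10 depth groups, its odds ratio with Krt16, its neighbour on chromosome 11, was 1.73, 2.31 and 2.85 in injured replicates 1 to 3 and with Krt6a 1.11, 1.84 and 1.41. Among cells with a Krt5 or Krt14 cut site these were 1.72, 1.58 and 1.28 with Krt16 and 1.18, 0.982 and 0.521 with Krt6a, so the latter took both directions. Krt16 and Krt17 were both cut in 19.1, 19.0 and 8.31% of injured cells, and Krt6a, Krt16 and Krt17 together in 6.95, 11 and 3.49%, against 0, 0.112 and 0.636% of uninjured cells (0 of 454 allows up to 0.661%).

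Promoters of other genes were compared between injured cells with and without a cut site at any stress keratin, summed per library, with the library as a block. With cells thinned to 2000 fragments, edgeR called 0 of 10781 promoters (0%) in either direction, while 295 had an unadjusted p under 0.05. The same held for cells defined by Krt6a and Krt16 alone (0 of 10373, 0%) or by Krt17 alone (0 of 10231, 0%). Without thinning, when cells with a cut site are the deeper ones, 53 of 15745 promoters (0.337%) were higher and 134 (0.851%) lower in them. The lowest were an entry of Jakmip1 (-4.34), Umodl1 (-4.14), Nmur1 (-3.68) and Tex44 (-3.65), followed by Omp, the olfactory marker protein, at a log2 difference of -3.57, Rtp1, an olfactory receptor transporter, at -3.55 and Cnga4, a subunit of the olfactory transduction channel, at -3.46 (edgeR adjusted p 0.000106, 9.2e-05 and 4.1e-05). Il24, a cytokine of wounded skin, was higher by 1.98, Col17a1, a hemidesmosome collagen of basal cells, by 1.44 and Krt14 by 1.15 (edgeR adjusted p 0.0400, 0.0252 and 0.0373). Of the marker lists, 3 of 7 neuron markers were called lower, and 3 of 9 HBC markers tested and 2 of 7 Bowman gland and respiratory markers higher.

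With cells defined by Krt6a and Krt16 alone and not thinned, 128 of 15900 promoters (0.805%) were higher and 71 (0.447%) lower. Adam12, a metalloprotease, was higher by 2.03 and Il24 by 1.83 (edgeR adjusted p 0.0362 and 0.0116), and Omp was lower, at -3.04 (edgeR adjusted p 0.000762). Of the marker lists, 2 of 7 neuron markers were called lower and 2 of 9 HBC markers tested higher. Of the 7 Bowman gland and respiratory markers 0 were higher and 1 lower, unlike with cells defined by any of the 4 genes. The 7 neuron markers summed to 24.2, 17.6 and 28.4 CPM in cells with a Krt6a or Krt16 cut site and to 32.5, 39.2 and 79.8 CPM in the others of injured replicates 1 to 3. The 10 HBC markers summed to 169, 148 and 166 CPM against 146, 149 and 110. With cells thinned, neuron markers summed to 37.0, 33.3 and 21.7 against 34.7, 40.4 and 73.3 CPM and HBC markers to 172, 167 and 130 against 180, 147 and 121 CPM, from at most 20 neuron cut sites in the cells with a keratin cut site, so replicate 1 went the other way at matched depth. With cells defined by any of the 4 genes and thinned, neuron markers were at 28.0, 30.8 and 19.7 against 36.5, 41.5 and 77.6 CPM and HBC markers at 204, 212 and 135 against 173, 137 and 119 CPM. In the same cells sustentacular markers were at 47.0, 30.8 and 49.3 against 37.5, 29.6 and 35.5 CPM, also higher in each library, and those of the other 5 lists took both directions.

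Among the other keratins, 33 of 49 genes passed the filter on low counts, 1 was called higher and 1 lower, shares near the 2.21% and 1.71% of all promoters, and their median log2 change was 0.04 against 0.003 for all promoters tested. Krt19, a type I keratin of simple and progenitor epithelia, rose by 1.68 (edgeR adjusted p 0.0432) from 0.600 to 1.90 CPM, a call lost without any library but injured replicate 3 and in 3 of 11 other alternatives. Krt23, a type I keratin, fell by 0.60 on the log2 scale (edgeR adjusted p 0.00846) from 43.1 to 28.3 CPM and was not called without uninjured replicate 1 or 2 or injured replicate 2, nor in 2 of 12 other alternatives. The constitutive basal keratins were open in both groups, Krt5 at 29.5 and 26.9 CPM (log2 change -0.12) and Krt14 at 25.6 and 33.2 CPM (0.39; edgeR adjusted p 0.295, and 0.00840 with the replicate block). Krt15, also of basal cells, stood at -0.51, and Krt8 and Krt18 of simple epithelia at 0.04 and -0.10, none of them called. Of the keratins of stratified epithelia, Krt1, Krt13 and Krt75 had log2 differences of 0.15, 0.22 and 0.40, with signs that depend on the scaling, Krt4 had -0.80 and Krt10 was too low to test.

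Among 16 promoters of factors that textbooks place upstream of stress keratins, 0 were called higher (2.21% of all promoters) and 3 lower (1.71% of all), with a median log2 change of -0.23; 2 had a value above 0, Fosl1 (0.11) and Gli2 (0.18), neither called. The 3 called lower were the AP-1 subunits Fosb (-0.51, edgeR adjusted p 0.00760) and Junb (-0.38, 0.0242) and the cytokine-activated factor Stat3 (-0.46, 0.00996). Junb lost the call in 4 of the 6 fits with a library left out and in 1 other alternative, Stat3 in 1 and 1, and Fosb in 0 and 1. Fos (-0.47), Jund (-0.21) and Cebpb (-0.33) missed the threshold (edgeR adjusted p 0.0546, 0.0944 and 0.0634). With the replicate block, which called 4.53% of all promoters higher and 5.94% lower, 9 of the 16 were called lower and 0 higher, these 3 included (edgeR adjusted p 0.00504, 0.0250 and 0.0223), with Fosl2, Jun and Myc besides. Group means of the 16 promoters before and after injury ran from 16.8 and 18.9 CPM at Gli2 to 98.1 and 86.7 CPM at Jun. Fos stood at 79.7 and 57.2 CPM and Stat3 at 66.2 and 48.0 CPM.

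Genes of wounded epidermis, the usual company of Krt6 and Krt16 in skin, were described in the same way. Of 30 listed 27 were tested, 8 were called higher (29.6%, against 2.21% of all promoters) and 0 lower, with a median log2 change of 0.65 against 0.003 for all. The list was chosen with earlier results of these data known, so its share is a description and no test of the list. Il24 rose by 3.08 and Dsg3, a desmosomal cadherin of stratified epithelia, by 3.06 (edgeR adjusted p 0.0402 and 0.00681). Plaur, the urokinase receptor, rose by 1.71 and Plau, urokinase itself, by 0.65 (edgeR adjusted p 0.00574 and 0.0369). Ivl and Tgm1, of the cornified envelope, rose by 1.27 and 0.65, Sprr1a, another envelope gene, by 0.80 and the prostaglandin synthase Ptgs2 by 1.05 (edgeR adjusted p 0.0405, 0.0264, 0.0318 and 0.0403). Mmp10 (2.63) and Serpinb2 (1.56) missed the threshold (edgeR adjusted p 0.0545 and 0.0692; Mmp10 0.0412 with the replicate block). Plaur was called with each library left out in turn, Dsg3 with each but uninjured replicate 1, and the other 6 lost the call in at least 3 of the 6 fits with a library left out. These 6 also lost it in 1 to 4 of the other alternatives, Plau in 4 and Il24, Ivl and Sprr1a in 3, the replicate block among them for Il24 and Sprr1a (edgeR adjusted p 0.0578 and 0.0533).

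The labelled cell type was checked against marker promoters. The 10 HBC markers summed to 148 to 203 CPM in uninjured and 129 to 179 CPM in injured libraries, with 0 called higher and 1 lower (1.71% of all promoters were called lower). Of these, Trp63 had means of 0.752 and 1.04 CPM and Itga6 0.269 and 0.386 CPM. Both lay below the highest of the hair and nail keratins, Krt86 (1.94 and 2.84 CPM), and Trp63 lay above the means of the others. Each gene was counted only at its most upstream annotated start. Any other start of Trp63 or Itga6 was not counted, and these values do not describe it. Sustentacular markers, of the supporting cells that methimazole kills, summed to 66.7 to 71.4 CPM before and 34.8 to 44.4 CPM after injury, and 2 of 7 were called lower. Immune markers summed to 1.44 to 2.21 CPM before and 3.08 to 4.48 CPM after injury, 0 of the 5 tested were called, and Ptprc, Tyrobp and Coro1a were at 0 in 1, 1 and 2 libraries. Mature neuron markers summed to 30.6 to 42.2 CPM before and 31.9, 30.2 and 67.5 CPM after injury, the highest value in injured replicate 3, the injured library with least accessibility at Krt6a and Krt16. The part of these cell types in the results above was not tested.

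Likeness across the 6 libraries was measured as Pearson's r of log2 CPM over 12257 promoters with a mean of at least 5 CPM. The 6 libraries share the groups and the scaling, so r is a description. Closest to Krt16 was Hsp90aa1, a heat shock chaperone (r 0.997), and closest to Krt6a was Arhgap22, a GTPase-activating protein (0.995). Krt6a and Krt16 had an r of 0.976 with each other. Closest to Krt17 was Inka2 (0.996), and Krt17 had 0.910 with Krt5, -0.0997 with Krt6a and 0.0564 with Krt16.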

How the data were processed

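Sorted cells of 3 uninjured and 3 injured libraries were profiled by 10x single-cell ATAC-seq. The deposited fragment lists give each fragment's ends, barcode and read-pair counts, in whole counts, and the submitters' processing notes name Cell Ranger 2.0.0 and mm10; the headers of the deposited peak matrices, not used here, give another software version, and the aligner is not given in the sources used here. In a check, no fragment ran past a chromosome end of GRCm38, whose GENCODE M21 genes were used. Each fragment gave 2 cut sites, its ends, over barcodes with at least 2000 fragments. They were counted within 1 kb of the most upstream annotated start of each gene and in 500 bp tiles. No doublet calling was done.

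The 3 libraries per group were compared by edgeR 4.0.16 quasi-likelihood tests in R 4.3.3 with TMM factors from promoters, filterByExpr with min.count 10, and Benjamini-Hochberg adjustment over all features. The p-values measure the spread between these libraries. Replicate numbers may pair the libraries. Deviations from the group mean correlated at 0.112, 0.237 and 0.290 over promoters between libraries of the same number. Of the other 6 combinations, 5 were below 0 and uninjured 2 with injured 1 had 0.147, above the 0.112 of replicates 1. Deviations within a group sum to 0, so these values depend on each other and do not settle the pairing. The fit with a replicate block is an alternative. Shares of cells have 95% Wilson intervals, which cover counting error only, as do limits of 3 counts for a 0, and were compared by exact permutation tests. Alternatives were DESeq2 1.42.0, other scalings, windows, filters and cell sets, and each library left out. Tests were checked on simulated data: at a log2 of 2 and of 1, 99.5 and 90.0% of changed promoters were recovered in 17163, 29.0 and 2.5% of tiles in 407941, and 84.5 and 19.0% of promoters between cells with and without a cut site in 10781. Features simulated without change were called as well. These were 24 promoters beside 199 and 180 recovered, 10 tiles beside 58 and 5, and 10 promoters between cells beside 169 and 38.

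Regions named are the 6 called with the largest change per locus, others are named as chosen after their values were seen. Context genes named are those called, or fixed by name, from each list, and genes most like a member are the 3 with highest r. Of the genes that rule names, 1 is not reported here. The members and lists were chosen with earlier results of these data known. The genes' 3′ copies share reads, so uniqueness of 32-base stretches was computed from the genome. Python 3.11.15, numpy 2.4.6, pandas 2.3.3, scipy 1.17.1 and matplotlib 3.10.9 were used.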

Additional observations from a re-analysis of the deposited data

How the results depend on the processing

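Krt16 kept a rise of 3.11 or more under every alternative run. Its call was lost with cells counted in place of cut sites (3.11) and when any uninjured library was left out. Over the 6 libraries left out in turn Krt16 changed by 3.19 to 4.12. Krt6a kept its direction. It passed the threshold with DESeq2 (3.04), total cut sites (2.66), 10 kb bins (2.38), the gene body (2.66) and cells counted (2.92). It also passed without the barcodes shared by the replicates numbered 3 (3.06) and without barcodes of 10 or more times the median (2.91). Of the fits with a library left out, it passed only without uninjured replicate 3 (4.13), and all 6 gave 2.55 to 4.13. Krt17 took -0.60 with 10 kb bins, and was above 0 with 500 bp windows (0.058), cells counted (0.093), without those shared barcodes (0.00085) and without uninjured replicate 1 (0.17), injured replicate 2 (0.026) or 3 (0.12), range -0.22 to 0.17. Causes were not tested. Krt6b had at most 18 cut sites in a library.

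Promoters called higher numbered 624 with DESeq2, 727 over gene bodies and 69 to 768 with a library left out. Those called lower numbered 475 with DESeq2, 6600 with total cut sites, 9846 with 10 kb bins, 181 with 500 bp windows, 566 over gene bodies, 195 in cells with at least 20% of cut sites in open tiles, 116 with cells counted and 31 to 614 with a library left out. Tiles called higher numbered 13275 with 10 kb bins and 5982 to 35457 with a library left out, and lower 20105, 9830 with total cut sites and 879 to 10388. At the Krt6b and Krt6a locus 2 to 23 tiles were higher with a library left out, and lower were 3 with 10 kb bins, 1 with total cut sites and 0 to 2. At the Krt16 and Krt17 locus 3 were higher with 10 kb bins, 5 without barcodes of 10 or more times the median and 2 to 16 with a library left out, and lower were 5 with 10 kb bins, 1 with tiles shifted by 250 bp and 0 to 4.

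With the replicate block, which pairs libraries of the same number, Krt16 changed by 3.46 (edgeR adjusted p 0.0286) and Krt6a by 3.01 (edgeR adjusted p 0.0826), with no member's call changed. The block called 778 promoters higher and 1019 lower, 26036 tiles higher and 7566 lower, of which 17 higher and 1 lower at the Krt6b and Krt6a locus and 13 higher and 4 lower at the Krt16 and Krt17 locus.

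The share of cells with a Krt17 cut site differed by 2.27 points over the gene body and by -4.22 to 1.55 with a library left out (1.49 and 1.55 above 0). Without thinning 53 and 134 promoters differed between cells with and without a cut site, and 128 and 71 for Krt6a and Krt16 alone. Signs turned for Krt1 (total -0.12, bins -0.38, gene body -0.17, open tiles -0.048, large barcodes out -0.15, left out -0.046 to 0.42, with -0.042), Krt13 (total -0.071, bins -0.34, gene body -0.47, open tiles -0.037, left out -0.083 to 0.85), Krt14 (bins -0.19, gene body -0.20), Krt5 (500 bp 0.14, gene body 0.15, cells counted 0.015, left out -0.30 to 0.069, with 0.052), Krt75 (bins -0.15, cells counted -0.043, left out -0.10 to 1.41, with -0.044) and Krt8 (total -0.25, bins -0.53, left out -0.11 to 0.22, with -0.0026).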
